A study of Arabidopsis thaliana with 8 samples.

Results

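The mRNAs described here were those that largely kept their polysome-bound share, relative to their total mRNA, in heat-stressed Arabidopsis thaliana seedlings. The polysome content as a whole fell by the study's own measure. The polysome-bound signal of such an mRNA could itself fall where its total mRNA fell too. In total, 86 probe sets of 86 genes met the limits, out of 13355 genes with an annotated probe set of their own. In the annotation used, 8794 of the 22810 probe sets of the ATH-1 array had no gene listed and 503 listed several. These could not become members. Another 13415 reported 1 nuclear gene, and 7806 of these were eligible by level and by their change in total mRNA. Columbia-0 wild-type seedlings, 7 days old, were kept at 22°C or exposed to 38°C for 45 min. The labels name no transgene and no other agent for either group. Total mRNA (TOT) and polysome-bound mRNA (PB) of the same 4 seedling samples were hybridized, giving 4 groups of 2 arrays (TOT22, TOT38, PB22 and PB38), with PB taken from the pooled polysomal fractions of a sucrose gradient. Whole seedlings were ground, so all organs were mixed, and a lower signal can come from fewer cells of a kind or from less mRNA per cell, which cannot be told apart. Of the marker genes chosen to check the tissue, only the root gene PYK10 had a named probe set, with 11.8 to 13.3 on the deposited log2 scale over the 8 arrays.

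In polysome profiling, mRNAs are separated on a sucrose gradient by the number of ribosomes they carry, and the share of an mRNA in the heavy fractions is read as its engagement in translation. In heat, initiation on most plant mRNAs falls and ribosomes leave the polysomes, while some mRNAs keep or regain them. Long coding regions hold more ribosomes at a time than short ones. These statements are background and not results of these arrays.

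The members were chosen by the measured values. For each replicate, the heat effect in TOT was subtracted from the heat effect in PB, and the difference had to be -0.27 or higher in replicate 1 and in replicate 2 on the deposited log2 scale. This corresponds to a relative translation efficiency (the change in PB over the change in TOT) of at least 0.829. The deposited PB38 values had been lowered by the relative polysome content of their replicate, a factor of -0.84 in replicate 1 and -0.89 in replicate 2 on the log2 scale, and the means of these arrays were 5.30 and 5.25 against 6.15 to 6.18 on the other 6. Signals of single genes are given as deposited, and with the factor divided out 12 members were lower in PB at 38°C without overlap, against 53 as deposited, so the scale is named below where it changes the PB direction or overlap. These counts show the effect of the scale only. They were not made over the other eligible probe sets, so they do not set the members apart. The mean change in TOT had to lie between -2 and 2, and the highest of the 4 group means had to be at least 5. Of 4 genes set aside by name, STZ, COR47, CML37 and GH3.3, 1 would have met the limits. Replicates were matched across temperatures by their number, as the study's methods give the polysome content per biological replicate. At the edge, 10 members lay at -0.27 in their lower replicate, among them AT1G04200, AT1G13650 and ATSBT5.2, while 8 eligible probe sets, such as AT1G11280, AT2G19930 and AT2G28780, lay at -0.28 and were left out. With differences known to 2 decimals, these groups are a single step apart.

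Among the members, the median relative translation efficiency was 0.935, ranging from 0.832 to 1.20, against a median of 0.557 for the other 7720 eligible probe sets. These values follow from the choice and carry no test. The median difference of the members was -0.14 in replicate 1 and -0.11 in replicate 2, against -0.86 and -0.83 for the other eligible probe sets. In 6 members the difference was at or above 0 in both replicates, so that the change in PB was at or above that in TOT with the polysome factor included. Across the eligible probe sets the differences of the 2 replicates had a Pearson's r of 0.553, as a description over probe sets, which share the same 8 arrays. Replicate 2 alone placed 580 probe sets past the limit and replicate 1 alone 245.

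**Figure D1:**
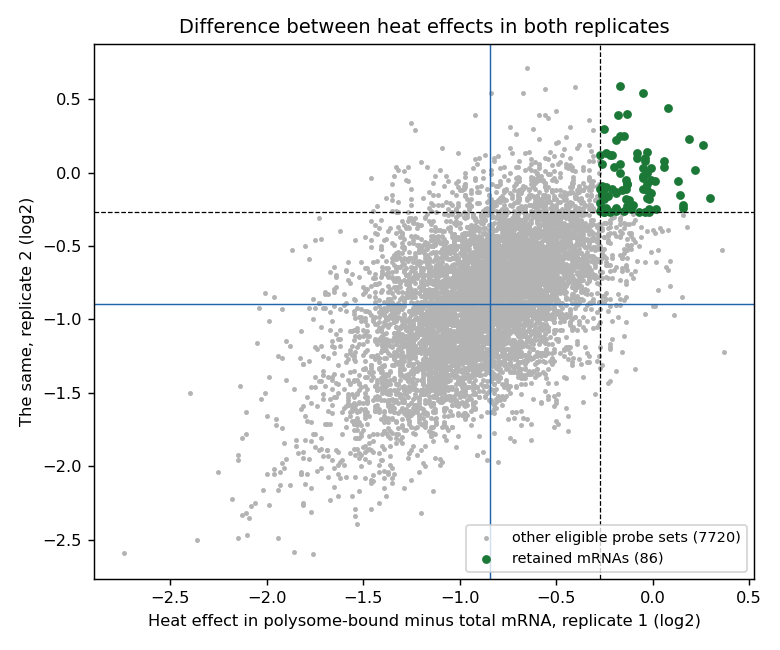
Difference between the heat effects in polysome-bound and total mRNA (deposited log2 scale) in replicate 1 (x axis) and replicate 2 (y axis) for the 86 retained mRNAs (green) and the other 7720 eligible probe sets (grey). Dashed lines mark the limit of -0.27 and blue lines the log2 of the polysome content, -0.84 and -0.89; the grey cloud is centred near the crossing of the blue lines.

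The 6 members at or above 0 in both replicates were AT1G80850, AT3G09160, AT2G25590, AT3G28530, AT3G57570 and AT1G70790. AT1G80850 gave 7.55 and 7.42 in TOT22, 6.60 and 6.43 in TOT38, 6.94 and 6.76 in PB22, and 6.18 and 6.0 in PB38 on the deposited log2 scale, replicate 1 first. The difference between 38°C and 22°C was larger in TOT than in PB in both replicates, giving 0.19 and 0.23, and as deposited both populations were lower in heat without overlap. With the factor divided out PB overlapped. For AT3G09160 the values were 5.67 and 6.0 in TOT22, 4.01 and 4.14 in TOT38, 4.28 and 4.36 in PB22, and 2.88 and 2.69 in PB38. All 4 heat-stressed arrays were lower than the controls of their population, in PB with the factor kept or divided out, and PB38 was the dimmest group, on arrays where the trp control probe sets had medians of 1.98 and 2.03. AT2G25590 gave 6.20 and 5.69 in TOT22, 5.75 and 5.52 in TOT38, 4.44 and 4.31 in PB22, and 4.07 and 4.58 in PB38. Here the temperatures overlapped in both populations as deposited, while PB was higher in heat with the factor divided out, and its differences of 0.08 and 0.44 were less alike than those of AT1G80850.

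AT3G57570 had 5.85 and 6.22 in TOT22, 5.20 and 5.78 in TOT38, 5.50 and 5.69 in PB22, and 4.91 and 5.29 in PB38. As deposited, both populations were lower in heat by nearly the same amount in each replicate, and with the factor divided out PB was higher in heat without overlap. AT1G70790 was higher in heat, with 7.18 and 7.25 in TOT22, 8.54 and 7.64 in TOT38, 6.09 and 6.07 in PB22, and 7.67 and 6.48 in PB38. Its replicate 1 was high in TOT38 and in PB38 alike, and neither population overlapped between temperatures on either scale. AT3G28530 gave 5.81 and 5.38 in TOT22, 6.89 and 6.28 in TOT38, 5.78 and 5.32 in PB22, and 6.92 and 6.30 in PB38. Its probe set is of the kind that shares probes with other sequences, and its gene model spans only 78 bp, so the gene behind this signal is uncertain.

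Next in order came AtLEA4-1, AT4G27280, AT5G26850, AT1G80800, AT5G65440 and AT1G13160. AtLEA4-1, a late embryogenesis abundant protein of the hydrophilic kind that accumulates in drying seeds, gave 4.90 and 5.26 in TOT22, 6.49 and 7.09 in TOT38, 5.27 and 5.64 in PB22, and 6.85 and 7.50 in PB38. It was higher in heat in every pair of arrays, its deposited change of 1.72 in PB was close to that of 1.71 in TOT, and it was the member with the highest polysome-bound signal relative to its total signal at both temperatures. AT4G27280 was also higher in heat, with 8.77 and 8.35 in TOT22, 9.00 and 9.72 in TOT38, 8.43 and 7.98 in PB22, and 8.63 and 9.49 in PB38. The gap between temperatures was wider in replicate 2 than in replicate 1, in TOT and in PB alike.

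AT5G26850 had 8.11 and 8.07 in TOT22, 7.40 and 7.69 in TOT38, 7.72 and 7.52 in PB22, and 6.98 and 7.14 in PB38. TOT was lower in heat without overlap, and PB was lower as deposited but higher with the factor divided out. Its differences of -0.03 and 0.00 were close to each other. AT1G80800, which the annotation lists as a transcribed pseudogene, had 6.76 and 6.55 in TOT22, 7.27 and 6.55 in TOT38, 4.19 and 4.61 in PB22, and 4.66 and 4.71 in PB38. It was low in PB at both temperatures. AT5G65440 changed little, with 6.70 and 6.51 in TOT22, 6.31 and 6.72 in TOT38, 6.28 and 5.99 in PB22, and 5.85 and 6.28 in PB38, and the temperatures overlapped as deposited, with PB higher in heat once the factor was divided out. AT1G13160 was lower in heat in TOT without overlap, and in PB as deposited only, since PB overlapped with the factor divided out, with 6.30 and 5.88 in TOT22, 5.40 and 5.18 in TOT38, 5.54 and 5.75 in PB22, and 4.59 and 5.01 in PB38.

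A name beyond the locus code was held by 16 members, and the other 70 are given by their code only. By role, 3 of the 16 act on gene expression in the nucleus or in plastids. bZIP58, a basic leucine-zipper transcription factor, gave 3.58 and 4.00 in TOT22, 4.99 and 6.04 in TOT38, 3.74 and 4.34 in PB22, and 4.99 and 6.26 in PB38. It was dim at 22°C and higher in heat on all 4 heat-stressed arrays, with replicate 2 the higher one. 3xHMG-box2, a DNA-binding protein of the high mobility group found on mitotic chromosomes, was lower in heat, with 9.11 and 8.72 in TOT22, 7.89 and 7.54 in TOT38, 8.86 and 8.65 in PB22, and 7.61 and 7.30 in PB38. CFM3A, a protein of the CRM family that takes part in intron splicing in chloroplasts, gave 7.25 and 7.56 in TOT22, 6.37 and 6.15 in TOT38, 7.05 and 7.26 in PB22, and 5.96 and 5.97 in PB38. For both, no heat-stressed array reached a control array of its population, with the factor kept or divided out.

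Among the genes of the cytoskeleton and of membrane traffic, NET1D, an actin-binding protein of the Networked family, gave 5.39 and 5.87 in TOT22, 4.20 and 4.40 in TOT38, 5.30 and 5.25 in PB22, and 3.94 and 4.37 in PB38. Its differences of -0.17 and 0.59 were the least alike among the named members, the change in TOT being larger in replicate 2 and that in PB in replicate 1. TPLATE, a subunit of an adaptor complex of endocytosis, gave 7.48 and 7.64 in TOT22, 6.13 and 6.59 in TOT38, 7.02 and 6.83 in PB22, and 5.42 and 6.08 in PB38. SHRUBBY (AT5G24740), a VPS13-like protein needed for root growth, changed less, with 5.68 and 5.64 in TOT22, 5.13 and 5.33 in TOT38, 5.41 and 5.29 in PB22, and 4.67 and 4.84 in PB38. All of these were lower in heat in TOT without overlap, and in PB as deposited. With the factor divided out, PB of NET1D and TPLATE overlapped and that of SHRUBBY was higher in heat, by 0.10 and 0.44.

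Of the genes of the endoplasmic reticulum and of transport, ATERDJ2A, a J-domain protein of the reticulum that assists protein import, gave 8.05 and 7.90 in TOT22, 7.67 and 7.36 in TOT38, 7.48 and 7.20 in PB22, and 6.89 and 6.55 in PB38. NAI2, a component of the bodies that form from the endoplasmic reticulum in seedlings, gave 9.97 and 10.34 in TOT22, 8.93 and 9.75 in TOT38, 9.95 and 10.24 in PB22, and 8.65 and 9.51 in PB38. In both genes the heat-stressed arrays were lower without overlap in TOT, and in PB as deposited, while PB overlapped with the factor divided out and ATERDJ2A then lay above its 22°C level in both replicates. AT1G68570 (NPF3.1), a transporter of the NRT1/PTR family, gave 7.03 and 8.39 in TOT22, 5.64 and 5.93 in TOT38, 6.77 and 7.61 in PB22, and 5.13 and 4.97 in PB38. It had the lowest change in TOT of the named members, -1.93 on the log2 scale, and its control samples differed by more than 1 in TOT.

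The proteases were ATSBT5.2 and TPP2. ATSBT5.2, a subtilisin-like serine protease, gave 5.71 and 6.68 in TOT22, 5.53 and 6.64 in TOT38, 5.81 and 6.40 in PB22, and 5.38 and 6.09 in PB38, so that its replicates lay further apart than its temperatures. With the factor divided out its PB change was 0.41 and 0.58. TPP2, tripeptidyl peptidase II, which removes tripeptides from the start of peptides, gave 9.34 and 9.44 in TOT22, 8.54 and 8.80 in TOT38, 9.02 and 9.10 in PB22, and 7.95 and 8.25 in PB38. It was lower in heat on each array as deposited, by 0.72 in TOT as a mean, and PB overlapped with the factor divided out.

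The remaining named members were GI, MAK10, APL4 and ZW9. GI (GIGANTEA), a protein of the circadian clock and of flowering time, gave 9.19 and 7.85 in TOT22, 7.98 and 7.30 in TOT38, 8.91 and 7.67 in PB22, and 7.48 and 6.85 in PB38. Its control samples differed more than its temperatures did, with replicate 1 higher in both populations, and the temperatures overlapped in TOT, and in PB with the factor divided out. MAK10, a subunit of an enzyme that acetylates the N-terminus of proteins, gave 7.50 and 7.47 in TOT22, 6.29 and 6.73 in TOT38, 7.24 and 7.17 in PB22, and 6.02 and 6.29 in PB38. APL4, a large subunit of ADP-glucose pyrophosphorylase in starch synthesis, gave 4.81 and 5.33 in TOT22, 4.22 and 3.59 in TOT38, 4.36 and 4.57 in PB22, and 3.64 and 3.23 in PB38. Both were lower in heat without overlap in TOT, and in PB as deposited only. ZW9, the brightest of the named members, gave 10.91 and 11.21 in TOT22, 10.14 and 10.26 in TOT38, 10.86 and 11.27 in PB22, and 9.83 and 10.06 in PB38, with the same pattern.

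**Figure D2:**
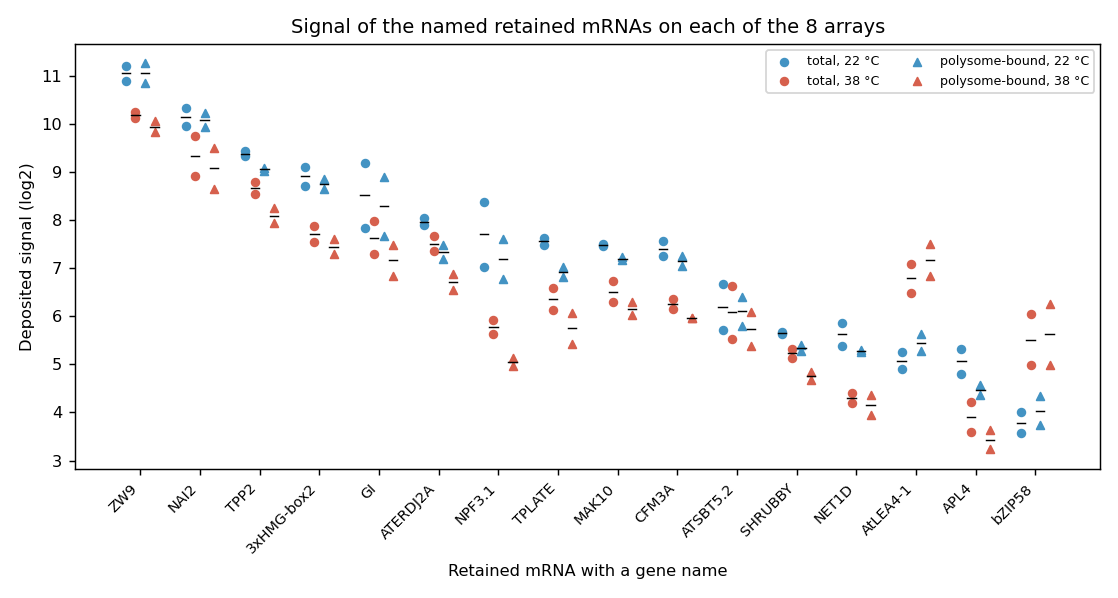
Deposited log2 signal (y axis) of the 16 retained mRNAs with a gene name (x axis, ordered by their mean in TOT22) on each of the 8 arrays; circles are total and triangles polysome-bound mRNA, blue 22°C and red 38°C, and bars are the means of 2 arrays. AtLEA4-1 and bZIP58 are higher in heat, and the other 14 have lower means in heat in both populations on the deposited scale. With the factor divided out, 3 of these 14 (ATERDJ2A, ATSBT5.2 and SHRUBBY) lie above their 22°C level in PB in both replicates and 3 (3xHMG-box2, CFM3A and NPF3.1) stay lower without overlap.

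The gene lists, made of words in the symbols and synonyms, each held at most 2 members. Of the 7806 eligible probe sets 1.10% were members. Members made up 2 of 63 eligible probe sets of ubiquitin and proteolysis, and 1 each of 26 transcription factors, 29 of membrane traffic, 20 of the cytoskeleton and motors, 17 transporters and channels, 15 of chromatin and helicases, 11 of water deprivation, salt, cold, abscisic acid and wounding, 8 chaperones and 7 of RNA binding and processing. None was among 61 genes of oxidation and reduction, 60 of the cell wall and glycosyl transferases, 10 of calcium signalling, 7 protein kinases and 1 cytosolic ribosomal protein, and the list of disease resistance matched 0 eligible probe sets. Only 1257 eligible probe sets had a name to be matched, of which 16, or 1.27%, were members, and the 70 members without a name could fall in no list.

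The changes in level were not the same across the members. Their median log2 change was -0.48 in TOT, against -0.15 for the other eligible probe sets, and 62 of 86 had a mean below 0, against 59.4% of the others. This change enters the difference that chose them with a negative sign and was itself limited, so the counts that follow are descriptions fixed in part by the choice, and nothing is read from them against the shares of all probe sets. By limma (adjusted p under 0.05 and at least 2-fold), 2 members rose in TOT, where 4.61% of all probe sets and 4.07% of the eligible ones did, and 17 fell, where 7% and 8.54% did. With arrays centred on their medians the counts were 4 and 9, and after cyclic loess 4 and 14. The centring moved the median heat effect of all probe sets in TOT from 0.03 to 0.24. The 2 that rose were AtLEA4-1 (log2 1.71) and AT1G32090, whose arrays gave 6.81 and 6.42 in TOT22 and 8.02 and 8.44 in TOT38. Of those that fell, AT3G15720 and AT5G50740 lay closest to the lower limit, with log2 changes of -1.99 and -1.98, and NET1D, TPLATE, CFM3A, 3xHMG-box2, APL4 and AT1G68570 were named genes among them. Of the 17, 6 reached the minimum level of 5 only at 22°C (NET1D, APL4, AT1G74250, AT3G09160, AT3G15720 and AT5G52280), and were thus admitted by the groups where they are high.

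In polysome-bound mRNA, with the factor divided out so that 0 is the array average, 15 members rose by the same limits, where 4.73% of all probe sets and 4.16% of the eligible ones did, and 2 fell, where 6.49% and 8.61% did. With the replicate number as block 4 fell. The choice used this contrast too and favours high values in it, so these counts carry no test of the members. The mean change was 2.59 for AtLEA4-1, 2.53 for AT1G32090 and 2.45 for bZIP58, and bZIP58 reached the minimum level only at 38°C. AT5G09880 had a change of 1.49, from 7.27 and 7.28 in PB22 to a deposited 7.98 and 7.81 in PB38, with the 2 PB arrays of each temperature close together. Those that fell were AT1G20070 and AT5G50740. With the factor kept, 4 members rose (2.06% of all probe sets and 0.628% of the eligible ones did) and 23 fell (36.9% and 49.6% did), the 4 being AtLEA4-1, AT1G32090, bZIP58 and AT3G28530.

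Counted by direction alone, 25 members lay below their 22°C level in TOT and above it in PB, relative to the array average, in both replicates. Another 19 lay above in both populations and 16 below in both, while 26 were mixed between replicates and 0 lay above in TOT and below in PB. On this scale the limit places the change in PB above that in TOT in both replicates. The 0 was therefore fixed by the choice, which also favours the 25, and nothing is read from these counts. Among the other eligible probe sets, 2.79% lay below in TOT and above in PB in both replicates. Among the 25 was AT4G39680, with log2 changes of -0.42 and -0.46 in TOT and of 0.41 and 0.38 in PB, which were alike in both replicates. ATERDJ2A was also one of them, at -0.38 and -0.54 in TOT and at 0.25 and 0.24 in PB. Without the division by the factor, 15 members were at or above their 22°C level in PB in both replicates.

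**Figure D3:**
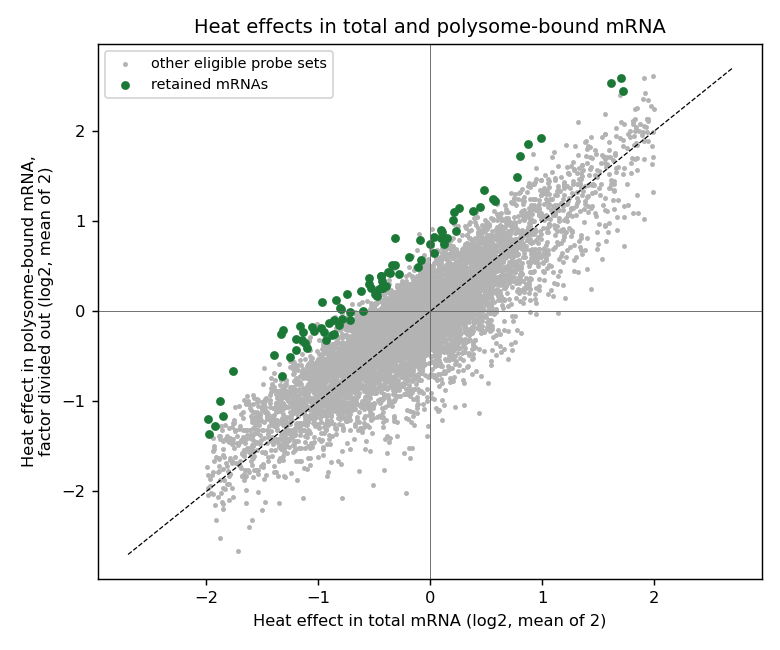
Log2 heat effect in total mRNA (x axis) against that in polysome-bound mRNA with the polysome-content factor divided out (y axis), means of 2 replicates, for the 86 retained mRNAs (green) and the other eligible probe sets (grey). The dashed line marks equal effects; the retained mRNAs lie above it by the choice, and their medians are -0.48 in total and 0.26 in polysome-bound mRNA.

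At 22°C the members were mostly less loaded than the array average. Their median of PB22 minus TOT22 was -0.36, against 0.01 for the other eligible probe sets, and 78 of 86 were below 0, against 48.7% of the others. At 38°C, with the factor divided out, the median of PB38 minus TOT38 was 0.39, against 0.02. Both values are terms of the difference that chose the members, so nothing is read from them. The mean of the 2 loadings is balanced against that difference, which did not use it, but the minimum level can favour 1 population. The minimum was reached only in TOT by 8 members, among them AT1G80800, which had the lowest mean loading. The median of this mean was -0.01 in the members, from -1.81 to 0.81, against 0.01 in the other eligible probe sets. It was below 0 in 44 of 86 members and in 49.2% of the others.

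**Figure D4:**
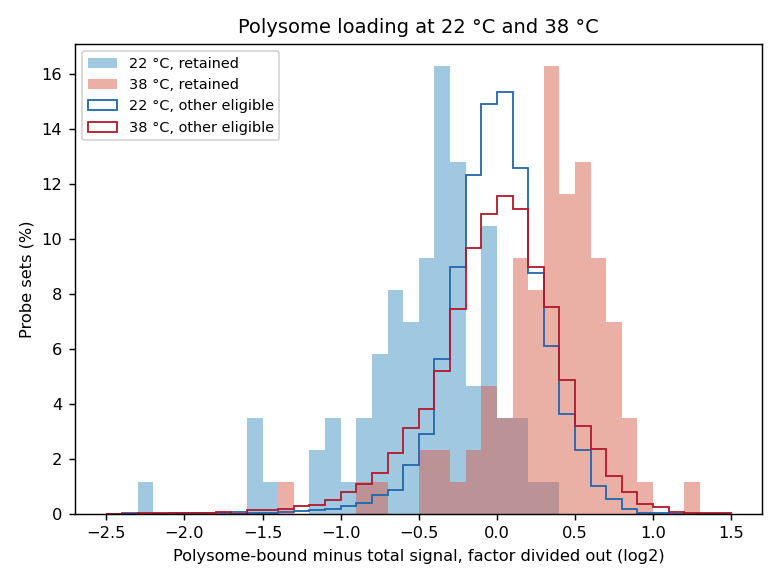
Polysome-bound minus total signal (x axis, log2, factor divided out) at 22°C (blue) and 38°C (red), as a percentage of probe sets (y axis), for the 86 retained mRNAs (filled) and the other 7720 eligible probe sets (lines). The retained mRNAs have medians of -0.36 at 22°C and 0.39 at 38°C, and the others lie around 0 at both temperatures.

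The mean loading over both temperatures, with the factor divided out, was tested with limma over all probe sets. In this test 3 members lay at least 2-fold lower in PB than in TOT (0.434% of all probe sets and 0.846% of the eligible ones did), and 0 lay higher (0.0219% and 0.0384% did). At an unadjusted p under 0.05, 14 members were lower (8.99% of all and 12.6% of the eligible probe sets were) and 6 higher (7.3% and 11.2%). Of the 3, AT1G80800 and AT2G25590 reached the minimum level only in TOT, so they were admitted by the population where they are high and their direction is not independent of the choice. AT5G66240 was above the minimum in all 4 groups. AT1G80800, the transcribed pseudogene given above, was lowest, with a log2 difference of -1.81 (standard error 0.18, adjusted p = 0.0155 from limma), and each of its 4 PB arrays was below each of its TOT arrays. AT5G66240 followed with -1.19 (standard error 0.10, adjusted p = 0.00888 from limma). Its deposited signals were 8.73 and 8.78 in TOT22, 8.96 and 8.80 in TOT38, 7.29 and 7.22 in PB22, and 7.28 and 7.00 in PB38. The deposited PB values of the 2 temperatures lay close together. With the factor divided out PB38 was 8.12 and 7.89, higher than PB22 without overlap but still below each TOT array. AT2G25590 was at -1.01 (standard error 0.17, adjusted p = 0.0394 from limma).

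Each of these calls was lost when certain single arrays were left out. The call of AT2G25590 was lost without any 1 of the 8 arrays (adjusted p from 0.0743 to 0.149 from limma). That of AT1G80800 was kept only without an array of TOT38 (adjusted p = 0.0484 and 0.0374 from limma; 0.0576 to 0.084 otherwise), and that of AT5G66240 was lost without TOT22 replicate 1, PB22 replicate 2 or PB38 replicate 2 (adjusted p = 0.0677, 0.0575 and 0.053 from limma). With TOT and PB paired by seedling sample all 3 were called (adjusted p = 5.49e-05, 2.65e-05 and 0.000537 from limma for AT1G80800, AT5G66240 and AT2G25590).

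The genes of the members had a longer median genomic span than those of the other eligible probe sets, a property that the choice did not use. Their median genomic span, introns included, was 3341.5 bp (quartiles 2341.5 and 4536.8 bp), against 2303 bp (1680 and 3206 bp) for the others. Spans of at least 5000 bp were found in 17 of 86 members, or 19.8%, and in 6.46% of the others. Read the other way, members made up 3.29% of the 516 eligible probe sets with a span of at least 5000 bp (17 members), 1.91% of 1828 from 3000 bp (35 members), 0.716% of 2515 from 2000 bp (18 members), 0.49% of 2448 from 1000 bp (12 members) and 0.802% of 499 under 1000 bp (4 members). The median difference between heat effects over all eligible probe sets was -0.63 in the longest group, and -0.86, -0.90, -0.87 and -0.78 in those from 2000 bp, from 1000 bp, under 1000 bp and from 3000 bp. No test was run on these spans, which are of genes and not of mRNAs.

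**Figure D5:**
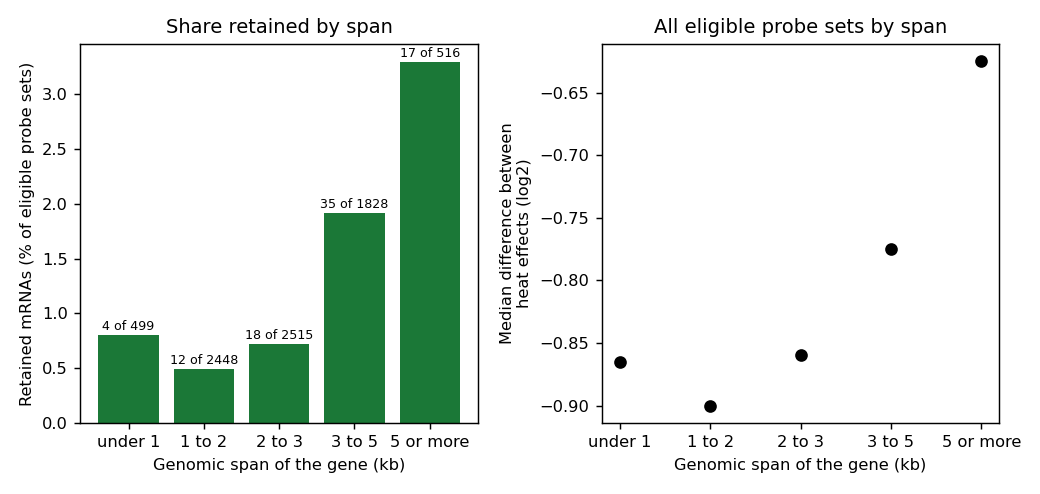
Left, retained mRNAs as a percentage of eligible probe sets (y axis) by genomic span of the gene in kb (x axis), with the counts above the bars; right, the median log2 difference between heat effects over all eligible probe sets in the same groups. The share is 3.29% in the longest group and 0.49% in that from 1 to 2 kb.

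The longest were AT1G48090 with 26499 bp, SHRUBBY with 20157 bp and AT5G23110 with 17576 bp. AT1G48090 gave 6.53 and 6.22 in TOT22, 5.63 and 5.54 in TOT38, 6.35 and 6.46 in PB22, and 5.26 and 5.65 in PB38. AT5G23110 gave 5.81 and 5.59 in TOT22, 5.29 and 5.39 in TOT38, 5.90 and 5.71 in PB22, and 5.21 and 5.51 in PB38. Both were lower in heat in TOT. In PB they were lower as deposited, but with the factor divided out AT1G48090 overlapped and AT5G23110 was higher by 0.15 and 0.69, and their relative translation efficiencies were 0.895 and 0.943. At the short end were AT3G28530, whose shared probes were named above, AT5G58570 with 593 bp, bZIP58 with 944 bp and AtLEA4-1 with 959 bp. AT5G58570 gave 6.04 and 5.34 in TOT22, 4.81 and 4.85 in TOT38, 4.59 and 3.83 in PB22, and 3.23 and 3.26 in PB38, and was lower in PB than in TOT in every sample, with the factor kept or divided out.

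The opposite side was taken as the 264 eligible probe sets with a difference of -1.4 or lower in both replicates, a relative translation efficiency of at most 0.379. Their median span was 1968.5 bp, and 3 of 264, or 1.14%, had at least 5000 bp. Their median level in TOT22 was 7.78, against 7.09 in the members. Their median change in TOT was 0.20, and their median loading at 22°C was 0.08.

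Members were found at all levels and on each chromosome. By the mean of all 8 arrays, members were 1.22% of eligible probe sets under 6, 1.18% from 6, 1.08% from 7, 1.34% from 8 and 0.43% of those at 9 or higher (4 of 931). There were 30 members on chromosome 1, 6 on chromosome 2, 16 on chromosome 3, 12 on chromosome 4 and 22 on chromosome 5, or 34.9%, 6.98%, 18.6%, 14.0% and 25.6%, against 26.1%, 15.0%, 20.5%, 14.6% and 23.8% of the other eligible probe sets. Of the members, 85 were listed as protein-coding, and 18 had at least 1 group mean below 5.

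Other probe sets listed for member genes gave a further reading on the same arrays. Whether they detect the same mRNA was not tested. There were 7, and 0 of them passed the limit in both replicates. The second probe set of AT5G50740 gave differences of -0.39 and -0.17, and that of AT1G22330 -0.40 and -0.25, both near the limit. For AT1G22330 the probe sets disagreed in TOT, with a mean change of 0.57 on the second and -0.43 on the member, while those of AT5G50740 gave -1.96 and -1.98. The change in TOT was also higher on the second for AT2G37840 (0.515 against 0.035), AT1G60200 (0.735 against 0.21) and AT2G07360 (-0.05 against -0.345). For AT2G27900 it was 0.54 and 0.22 on its other probe sets, against 0.03 on the member. For AT2G27900 a probe set with a mean of 7.275 in TOT22, brighter than the member's 6.385, gave -0.98 and -0.48. The retention of this mRNA was thus not seen on the brighter probe set. A dim one, with a mean of 3.095, gave -0.88 and -1.11. AT2G37840 gave -0.66 and -1.24, AT1G60200 -1.11 and -1.67, and AT2G07360 -0.97 and -0.62, from probe sets with means of 4.55, 4.26 and 4.07 in TOT22, against 6.32, 6.77 and 8.49 for the probe sets that were members.

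Several members differed between the 2 seedling samples of 1 temperature. The largest gap was that of AT1G13650, with 7.35 and 9.65 in TOT22 and 6.92 and 9.30 in PB22, a gap of 2.30 in TOT and 2.38 in PB. Gaps of over 1 occurred in 4 members in TOT22, 4 in TOT38, 3 in PB22 and 4 in PB38. Among the other 7720 eligible probe sets they occurred in 268, 251, 233 and 259. The median gap of the members was 0.27 in TOT22 and 0.36 in TOT38, against 0.19 and 0.26 for the other eligible probe sets. In PB22 it was 0.21 against 0.19, and in PB38 0.3 against 0.26. The differences that chose AT1G13650 were nevertheless alike, at -0.27 and -0.26.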

How the data were processed

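Total and polysome-bound RNA was hybridized to 8 ATH-1 arrays, with 2 biological replicates per group. As deposited, the values are log2 signals from RMA (affy, version not given in the sources used here), and the authors scaled PB38 by the polysome content, a factor taken from the study's methods. The raw scans were not analysed here. Members and gene lists were chosen with earlier results of these data known. Gene names came from the platform annotation and a RefSeq table (assembly TAIR10.1), which held 13436 of the 13513 probe sets of a single gene under their gene ID and 48 more under their locus code. Genomic span was read from that table. Protein length and base content were not analysed here.

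Each contrast used 1 mean per group over all 8 arrays with the factor divided out (limma 3.58.1, R 4.3.3, empirical Bayes moderation), and p-values were adjusted by Benjamini-Hochberg over 22810 probe sets. The code was tested on simulated data. By the methods, TOT and PB were taken from shared seedling samples, and their deviations from the group means correlated (r = 0.786 at 22°C, 0.762 at 38°C), so pairing by sample was run as an alternative. Values on all arrays are given, by rule, for the 12 members with the highest lower replicate and for up to 3 members of each list. The other named members, AT1G32090, AT5G09880, AT5G66240, AT1G13650 and the longest and shortest genes were added, in part after their values were seen. Alternatives covered scaling, level filters, pairing, matching of replicates and single arrays. Python 3.11.15 (pandas 2.3.3, numpy 2.4.6) with matplotlib 3.10.9 drew the plots.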

Additional observations from a re-analysis of the deposited data

Results flagged for a closer look

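In 25 members every replicate lay below its 22°C level in TOT and above it in PB, relative to the array average, so the 2 populations moved in opposite directions. The difference was not tested, since the choice of members used it. Among the other eligible probe sets, 215, or 2.79%, did the same, but the choice favours this pattern in the members, so nothing is read from their larger share. The direction rests on dividing out the polysome-content factor and on the scaling of the arrays. Some of these changes were small: AT1G06550 was at 0.04 and 0.02 in PB, and ATSBT5.2 at -0.18 and -0.04 in TOT. Centring the arrays on their medians moved the median heat effect of all probe sets in TOT from 0.03 to 0.245. The 25 were not counted on that scale.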

How the results depend on the processing

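The number of members depended on the limits. Instead of 86 there were 49 with arrays centred on their medians (45 of them shared), 38 with a limit of -0.17 and 188 with -0.37. A single replicate gave 245 to 580. With replicate numbers crossed across temperatures there were 98, of which 54 were shared, and these 54, a count added after the data were seen, are those that pass both ways. A highest group mean of at least 6 left 70 members, and 1 value per gene left 80. The median genomic span was 2778 to 3095 bp with a single replicate and 3506.5 bp with crossed numbers.

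Members called lower in PB than in TOT numbered 3, against 4 with the seedling sample as replicate block, 0 at either temperature alone, 10 with the factor kept and 0 to 2 without 1 array. Members called higher numbered 0 throughout. In TOT, 2 rose and 17 fell, against 4 and 9 with arrays centred on their medians, 4 rising after cyclic loess, 3 and 20 with the replicate number as block, and 1 to 3 rising and 10 to 17 falling without 1 array. In PB, 15 rose and 2 fell, against 4 and 23 with the factor kept, 4 falling with the replicate number as block, and 10 to 17 rising and 1 to 3 falling without 1 array. The replicate number as block changed no other count of calls by over 1.5 times. Pairs of the same number across temperatures had an r of 0.522 in TOT and 0.438 in PB. In TOT, 10 fell without TOT22 replicate 2 and 11 without TOT38 replicate 1, and 1 rose without TOT22 replicate 1, TOT22 replicate 2 or TOT38 replicate 2. In PB, 1 fell without PB22 replicate 1. The cause of these changes was not tested. With 2 arrays per group the number of arrays limits the precision of each value.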
